A study of Mustela putorius furo with 8 samples.

Results

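The genes described here are the nuclear genes of the mitochondrial respiratory chain, which were chosen by symbol: all features that start with NDUF, UQCR, ATP5, COX4I, COX5, COX6, COX7 or COX8, together with SDHA, SDHB, SDHC and SDHD. Of 27912 features in the count matrices, 69 were members: 47 by the NDUF prefix, 18 by the ATP5 prefix and the 4 SDH genes. The UQCR and COX prefixes matched no feature, so the nuclear genes of complex III and most of those of complex IV were not analysed here. By role, the members were 7 core subunits, 30 accessory subunits and 8 assembly factors of complex I, the 4 subunits of complex II, 2 genes assigned to complex IV (NDUFA4 and its paralog NDUFA4L2) and 18 genes of complex V, the ATP synthase.

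Complex I takes electrons from NADH and pumps protons across the inner mitochondrial membrane, complex II takes electrons from succinate, and complex IV passes electrons on to oxygen. The ATP synthase uses the returning protons to make ATP, which duct epithelium spends on the ion pumps that drive fluid and bicarbonate secretion. Complexes I, IV and V are built from subunits of both genomes, and 13 of their proteins and of complex III are encoded by mitochondrial DNA, so the nuclear and the mitochondrial transcripts were set side by side.

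Duct cells had been isolated from the pancreas of newborn ferrets (1 to 3 days old), expanded by passage and then polarized on membrane inserts, with the upper face exposed to air. The genotypes were wild type (WT) and CFTR KO/KO (CF), and single-cell RNA was taken on day 2, 5, 7 and 9 of that air-liquid interface, with 1 library for each genotype and day. Each library pooled 3 donors of its genotype, whose cultures are described as far apart between genotypes in the transcription factor PDX1, and cells were not assigned to a donor here, so no value has a replicate error and no test between genotypes was run. WT and CF stand for the libraries labelled so. Both cultures had the same media and the same support, and the CF culture differed by its CFTR genotype and by its animals, which cannot be told apart.

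The 8 libraries held between 1607 and 6224 cells and between 34735952 and 114585136 unique molecular identifiers (UMIs, each standing for 1 captured transcript). Of 32796 barcode sequences, 148 occurred in more than 1 library. CFTR, the targeted gene, had 6.57, 16.9, 15.9 and 29.5 counts per 1000000 UMIs (CPM) in WT at day 2, 5, 7 and 9 and 2.50, 8.69, 11.1 and 11.4 CPM in CF, so transcripts of the gene were counted in CF libraries too. Duct epithelial keratins were high throughout, with KRT19 between 3772 and 5113 CPM, whereas INS, GCG and CDH5 were at 0 UMIs in every library. All 6 fibroblast genes listed were detected. Their sum ranged from 2.30 to 5.79 CPM in WT, mostly PDGFRA, and from 1.53 to 30.0 CPM in CF, with COL1A1 at 18.9 CPM on CF day 7, and its part in the results was not tested. SOX2, a transcription factor of foregut epithelia, split the WT clusters: 12 had at most 4.87 CPM and 29 had at least 50.6 CPM, while no CF cluster exceeded 1.08 CPM.

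All 69 members were detected, from a mean over the 8 libraries of 0.126 CPM for NDUFA4L2 to 1393 CPM for ATP5F1E, the epsilon subunit of the ATP synthase. The median member had a mean of 228 CPM. CPM were not scaled to transcript length, so these levels describe each gene and rank none. A mean of at least 100 CPM was found for 51 members, and the 10 members with the most UMIs held 36.7% of all UMIs of the members. A mean of at least 10 CPM was required for comparisons, which 62 of the 69 members and 7712 genes in all passed. The 7 members under it were NDUFAF2, NDUFAF4, NDUFAF5, NDUFAF6 and NDUFAF7 (assembly factors of complex I), NDUFA4L2 and ATP5MC2.

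Summed over the 69 members, the level in CPM was nearly flat across the series. In WT it was 19152, 18300, 18446 and 18046 CPM at day 2, 5, 7 and 9, or 1.92%, 1.83%, 1.84% and 1.80% of all UMIs. In CF it was 18687, 19502, 19155 and 19712 CPM. The highest library was thus 1.09-fold above the lowest. CF was below WT at day 2, with a CF-to-WT ratio of 0.976 (0.974 to 0.978), and above it at the later days, with ratios of 1.07 (1.06 to 1.07), 1.04 (1.04 to 1.04) and 1.09 (1.09 to 1.1). Intervals in this text are 95% intervals for counting error alone, which is small at this depth and leaves out variation between animals, cultures and libraries. The order at day 7 and 9 depended on scaling. With trimmed mean (TMM) factors the log2 difference was -0.15 at day 7 and 0.00 at day 9, against 0.05 and 0.13 with CPM. The course over time did too: the change from day 2 to day 9 with TMM factors was -0.28 in WT and -0.19 in CF, against -0.09 and 0.08 with CPM. At day 2 the order turned in the deposited ductal class (log2 0.04) and against SOX2-low WT clusters (0.11).

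**Figure D1:**
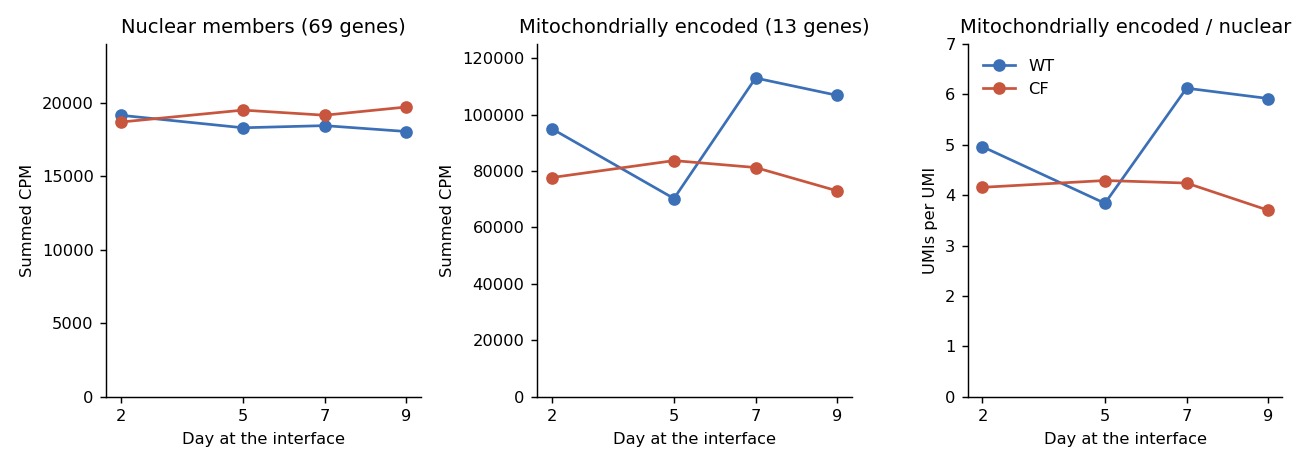
Summed level in each library by day at the interface, for WT (blue) and CF (red): the 69 nuclear members in CPM (left), the 13 mitochondrially encoded protein genes in CPM (middle) and the UMIs of the latter per UMI of the former (right). Each point is 1 library; the nuclear sum stays between 18046 and 19712 CPM while the mitochondrial sum ranges from 70250 to 112945 CPM.

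The transcripts of the 13 mitochondrially encoded protein genes moved far more. Their sum was 95034, 70250, 112945 and 106803 CPM in WT and 77663, 83687, 81230 and 72962 CPM in CF, a 1.61-fold range. Per UMI of the nuclear members there were 4.96, 3.84, 6.12 and 5.92 mitochondrial UMIs in WT and 4.16, 4.29, 4.24 and 3.70 in CF. WT was thus above CF at day 2, 7 and 9 and below it at day 5. By gene, ATP6 (a membrane subunit of the ATP synthase) stood at 20902, 12643, 21920 and 19173 CPM in WT and 14975, 12260, 11326 and 9548 CPM in CF. It was the only 1 of the 13 lower in CF at all 4 days (7.69%, beside 16.2% of all genes), with a log2 difference of just -0.04 at day 5, and 0 of the 13 were higher at all 4. COX1, the catalytic subunit of complex IV, was instead higher in CF at day 2, 5 and 7, with 14033, 18642 and 20645 CPM against 10908, 10926 and 17049 CPM. Both genes were chosen after their values were seen. The median share of mitochondrial UMIs per cell, as deposited, was between 6.63% and 10.7% in WT libraries and between 5.65% and 7.04% in CF libraries.

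Over all cells of a library, few members differed between the genotypes by 1.5-fold or more, the size called a difference here on the scale of log2(CPM + 1). At day 2, 0 of 62 members were above and 0 below that size, where 10.6% of the 7712 genes were above and 7.7% below. At day 5 the members again had 0 and 0, beside 5.23% and 7.35% of all genes. At day 7 only NDUFB3 was called, higher in CF, beside 13.1% of genes higher and 5.34% lower. At day 9 NDUFA4 was higher and ATP5ME lower in CF, beside 8.49% and 6.7% of genes. No member was called in 1 direction at all 4 days, beside 2.17% of genes higher and 1.98% lower in CF. At a smaller size, 0.32 on the log2 scale, chosen after the values were seen, NDUFC1 alone was higher at all 4 days and no member was lower, beside 5.3% and 3.88% of genes.

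The members' differences were also smaller in size than those of genes in general. Their median absolute log2 difference was 0.16, 0.13, 0.20 and 0.17 at day 2, 5, 7 and 9, against 0.25, 0.20, 0.27 and 0.23 over all genes tested. The genes were not matched to the members in level, here or in the shares above, and the part of level and of counting error was not tested. The signed medians were -0.09, 0.01, -0.07 and 0.13 for the members and 0.02, -0.04, 0.13 and 0.09 for all genes. Without regard to size, 11 of 62 members were higher in CF at all 4 days (17.7%) and 10 were lower (16.1%), against 24.2% and 16.2% of all genes. The share of members lower in CF was thus close to that of all genes, and the share higher in CF was below it, a gap that was not tested.

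**Figure D2:**
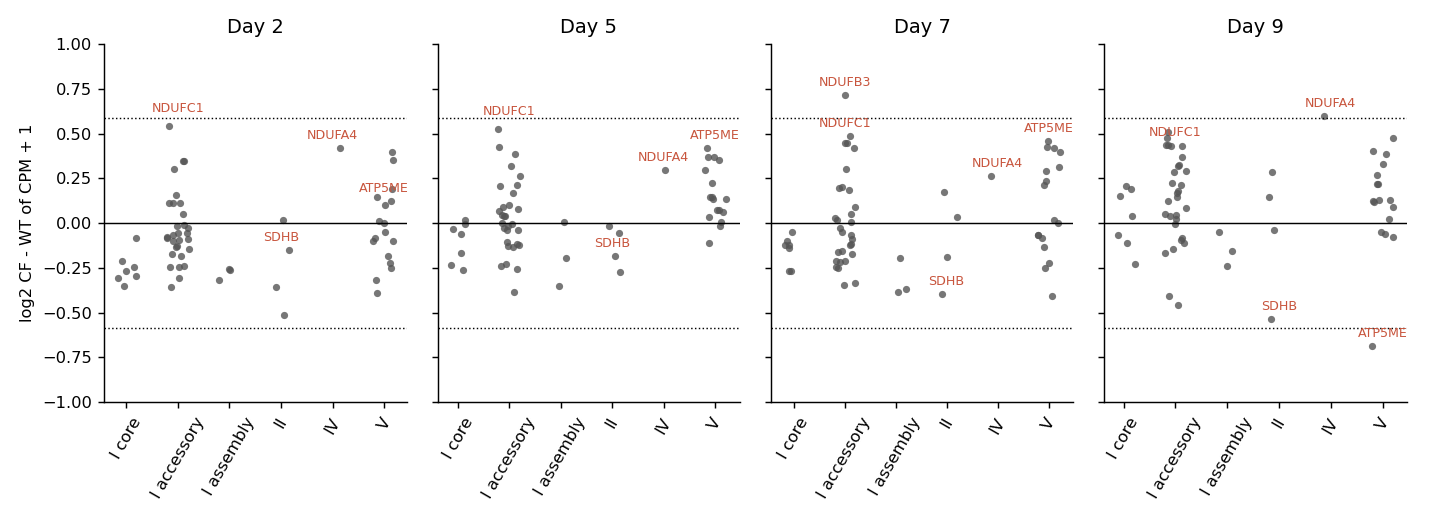
Difference between genotypes for the 62 members tested, by role and day, as log2 of CF CPM + 1 minus log2 of WT CPM + 1. Each point is 1 gene and dotted lines mark 1.5-fold; NDUFB3 at day 7 and NDUFA4 and ATP5ME at day 9 lie outside them.

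The 7 core subunits of complex I, which hold the flavin, the iron-sulfur clusters and the ubiquinone site, summed to 1275, 1111, 1084 and 890 CPM in WT and 1097, 1027, 976 and 955 CPM in CF. CF was lower at day 2, 5 and 7, with ratios of 0.861 (0.854 to 0.867), 0.925 (0.916 to 0.933) and 0.901 (0.890 to 0.912), and higher at day 9, with 1.07 (1.06 to 1.09). The order at day 9 turned with TMM factors (log2 -0.025), with DESeq2 size factors and in the deposited ductal class (-0.34). It did not turn in ductal clusters whose leading genes or depth do not go against their class name, called kept clusters here (0.14). All 7 were lower in CF at day 2 and at day 7, where 3731 and 2850 of all 7712 genes were lower. NDUFV1, which binds NADH, had 126, 96.4, 94.0 and 72.5 CPM in WT and 98.4, 85.8, 77.8 and 67.1 CPM in CF. CF was below WT at each day, although the ranges over the days overlapped, and the log2 difference was -0.35 at day 2 and -0.11 at day 9. In the deposited ductal class it was -0.43 at day 2 and -0.77 at day 9, where 233 of the 284 CF cells were in CF cluster 19, which was not kept and was the lowest of the 29 CF clusters of at least 50 cells in NDUFV1 (40.3 CPM, beside a median of 91.7 CPM). In kept ductal clusters, with 51 CF cells at day 9, it was -0.31 at day 2 and 0.07 at day 9.

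The 30 accessory subunits of complex I, which surround the core, summed to between 6931 and 7237 CPM in WT and between 7063 and 7554 CPM in CF. NDUFB7 and NDUFA11 held the most UMIs among them, with means of 537 and 482 CPM. NDUFB7 was lower in CF at day 2, 5 and 7 (480, 481 and 483 against 569, 629 and 562 CPM) and nearly level at day 9 (555 against 538 CPM). NDUFA11 differed by at most 0.29 on the log2 scale.

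NDUFC1, a small membrane subunit of complex I (positions 6639606 to 6645411 of its sequence in assembly ASM1176430v1.1, whose annotation table names no chromosome), was past the smaller size of difference at all 4 days. It stood at 144, 185, 190 and 229 CPM in WT and 210, 266, 267 and 309 CPM in CF. CF was higher at each day, and only the last WT library exceeded the first CF library. The ratios were 1.46 (1.43 to 1.49), 1.44 (1.41 to 1.47), 1.40 (1.37 to 1.44) and 1.35 (1.32 to 1.38). Under all 11 ways of scaling, weighting or choosing cells, including SOX2-low WT clusters alone, it was higher in CF at all 4 days. In centroacinar cells alone, which was not among these settings, its ratios at day 5, 7 and 9 were 1.42, 1.01 and 1.13.

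NDUFA2, an accessory subunit with a thioredoxin-like fold, was likewise higher in CF at each day, with 173, 210, 216 and 227 CPM in WT and 214, 262, 295 and 316 CPM in CF. Its ratio was between 1.23 and 1.39, and its direction held under the same 11 settings. NDUFB3 had 57.5, 69.7, 58.4 and 66.4 CPM in WT and 56.4, 81.0, 96.7 and 90.1 CPM in CF. Its ratio was 0.981 (0.947 to 1.02) at day 2 and 1.66 (1.58 to 1.73) at day 7. The annotated span of NDUFB3 overlaps the positions of FAM126B, that of NDUFB1 those of CPSF2 and that of ATP5MC1 those of UBE2Z. Reads there may be split if the genes of a pair lie on 1 sequence. NDUFB3 at day 7 fell short of 1.5-fold with TMM and with DESeq2 size factors.

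The 8 assembly factors of complex I, which help to build the complex and are not part of it, summed to 336, 286, 281 and 255 CPM in WT and 273, 250, 233 and 235 CPM in CF. CF was lower at each day, with ratios of 0.813 (0.801 to 0.826), 0.872 (0.856 to 0.888), 0.831 (0.810 to 0.852) and 0.920 (0.899 to 0.941). NDUFAF8 was lower in CF at each day (135, 134, 120 and 119 CPM in WT, 108, 105, 105 and 107 CPM in CF). NDUFAF1 was too, between 16.6 and 20.8 CPM in WT and between 13.9 and 17.2 CPM in CF. Against SOX2-low WT clusters alone, neither gene nor the sum of the factors kept 1 direction at all 4 days.

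Complex II, whose 4 subunits also work in the citric acid cycle, summed to 483, 494, 511 and 425 CPM in WT and 396, 450, 463 and 398 CPM in CF. The ratios were 0.819 (0.809 to 0.830), 0.911 (0.898 to 0.923), 0.904 (0.888 to 0.921) and 0.938 (0.922 to 0.954). Against SOX2-low WT clusters the sum did not keep 1 direction at all 4 days. In kept ductal clusters the ratios were 0.826, 1.01, 1.11 and 1.08, with 88 and 51 CF cells at day 7 and 9. The subunits did not share a course. SDHA, the flavoprotein, had 129, 114, 113 and 85.9 CPM in WT and 90.0, 93.9, 98.9 and 83.7 CPM in CF, so its difference was widest at day 2 (log2 -0.51) and was -0.04 at day 9. The deposited ductal class had -0.60 at day 2, -0.70 at day 7 and -0.998 at day 9, but 233 of its 284 CF cells at day 9 were in CF cluster 19, which had the lowest SDHA of the 29 CF clusters of at least 50 cells (44.7 CPM, beside a median of 106 CPM). In kept ductal clusters the differences were -0.48, -0.16 and -0.12, smaller in size at the later days as over all cells.

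SDHB, the iron-sulfur subunit, ran the other way. It had 147, 172, 187 and 176 CPM in WT and 132, 152, 142 and 122 CPM in CF, with ratios of 0.902 (0.881 to 0.922), 0.881 (0.860 to 0.902), 0.759 (0.735 to 0.783) and 0.689 (0.669 to 0.710). Over all cells it was lower in CF at each day, which did not hold in the ductal class or against SOX2-low WT clusters, and at day 9 its log2 difference of -0.53 was just inside the size called. With TMM factors it was past that size at day 7 (-0.60) and day 9 (-0.66). At day 9 it was also past it with DESeq2 size factors (-0.64), a total without mitochondrial genes (-0.59) and equal weight of cells (-0.59). The membrane anchors SDHC and SDHD had no single direction. SDHC was between 46.0 and 56.1 CPM in all libraries, and SDHD had 157, 155, 162 and 116 CPM in WT and 123, 153, 166 and 142 CPM in CF.

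NDUFA4, first described with complex I and now assigned to complex IV, was the 1 member past 1.5-fold higher in CF at day 9. It had 601, 741, 724 and 706 CPM in WT and 804, 910, 868 and 1068 CPM in CF. Every CF library exceeded every WT library. The ratios were 1.34 (1.33 to 1.35), 1.23 (1.22 to 1.24), 1.20 (1.18 to 1.22) and 1.51 (1.5 to 1.53). Its direction held at all 4 days under each of the 11 settings, but its call at day 9 was lost with TMM factors, DESeq2 size factors, a total without mitochondrial genes and equal weight of cells. In centroacinar cells alone, which was not among these settings, NDUFA4 was lower in CF at day 5 and 7 (ratios 0.87 and 0.82). NDUFA4L2, the paralog known for its induction by hypoxia, was near 0, with 14, 2, 1 and 4 UMIs counted in the WT libraries and 12, 1, 6 and 25 in the CF libraries.

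The 18 genes of the ATP synthase summed to 9221, 8443, 8681 and 8839 CPM in WT and 9054, 9465, 9386 and 9502 CPM in CF. The ratios were 0.982 (0.979 to 0.985) at day 2 and 1.12 (1.12 to 1.12), 1.08 (1.08 to 1.09) and 1.07 (1.07 to 1.08) later. The order turned at day 7 and 9 with TMM factors (log2 -0.095 and -0.024) and at day 7 with DESeq2 size factors. At day 2 it turned in the deposited ductal class and against SOX2-low WT clusters (0.16). Of 17 tested, 5 were higher in CF at all 4 days (29.4%, near the 24.2% of all genes) and none was lower at all 4 (beside 16.2%). ATP5F1A, the catalytic-ring subunit alpha, had 321, 244, 224 and 196 CPM in WT and 345, 316, 296 and 246 CPM in CF. It declined with day in both genotypes and was higher in CF at each day, with ratios of 1.07 (1.06 to 1.09), 1.29 (1.27 to 1.32), 1.32 (1.29 to 1.35) and 1.26 (1.23 to 1.29).

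ATP5MJ, a small membrane subunit, had 522, 539, 510 and 654 CPM in WT and 687, 688, 684 and 712 CPM in CF, and all CF libraries were above all WT libraries. Its direction was not kept with TMM factors or in cells under 10% mitochondrial UMIs. ATP5F1E had 1094, 1182, 1247 and 1683 CPM in WT and 1248, 1453, 1526 and 1711 CPM in CF. The RefSeq table lists ATP5F1E, ATP5ME and ATP5MK as lncRNA, although the genes of these symbols encode known subunits. ATP5IF1, the inhibitor of the reverse reaction, had 577, 527, 557 and 499 CPM in WT and 509, 583, 655 and 652 CPM in CF, below WT at day 2 and above it later.

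The c ring, the rotor that protons turn, is encoded by 3 genes for 1 mature protein. ATP5MC3 had 980, 730, 714 and 491 CPM in WT and 749, 768, 682 and 683 CPM in CF. ATP5MC1 had 613, 419, 390 and 315 CPM in WT and 514, 421, 335 and 345 CPM in CF. ATP5MC2 was between 3.21 and 7.56 CPM, and how the counting treated reads that fit more than 1 of the 3 genes was not examined. The summed c ring was 1596, 1153, 1112 and 810 CPM in WT, but 1268, 1195, 1024 and 1035 CPM in CF, so its genotype order at day 9 was opposite to that at day 2. Against SOX2-low WT clusters alone, both ATP5MC3 (log2 0.15) and ATP5MC1 (0.33) were higher in CF at day 2 already.

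From day 2 to day 9 individual members changed more than their sum. In CPM the sum changed by -0.09 on the log2 scale in WT and by 0.08 in CF, and with TMM factors by -0.28 and -0.19. Of 62 members, 7 rose in CPM by 1.5-fold or more in WT (beside 20.6% of all genes) and 13 fell (beside 12.3%). In CF 4 rose (beside 16.4% of genes) and 2 fell (beside 7.53%). The members that rose in WT were NDUFB1, ATP5ME, NDUFA3, ATP5MK, NDUFA1, NDUFC1 and ATP5F1E. All but ATP5F1E, the epsilon subunit, are small membrane subunits of complexes I and V, but not all such subunits were called, since ATP5MJ was not. Among those that fell were ATP5MC3, ATP5MC1, ATP5F1D, NDUFB10, NDUFAF3, NDUFV1, ATP5PO, NDUFB8 and ATP5F1A, with both c ring genes tested among them. In CF the risers were NDUFB3, NDUFB4, NDUFB1 and NDUFB11, and the fallers were ATP5F1D and NDUFAF3.

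NDUFB1, a single-pass membrane subunit, had the largest rise in WT, from 141 CPM at day 2 through 162 and 202 to 378 CPM at day 9, and in CF it had 180, 213, 276 and 276 CPM. ATP5F1D, the delta subunit of the central stalk, fell in both, from 445 to 234 CPM in WT (log2 -0.92) and from 357 to 222 CPM in CF (-0.68). NDUFAF3 fell from 141 to 79.5 CPM in WT (-0.82) and from 118 to 76.8 CPM in CF (-0.61). NDUFB4 rose from 40.9 to 63.3 CPM in CF and had 39.4 and 51.5 CPM in WT, where it was not called.

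Across the 62 members, the change from day 2 to day 9 in WT and that in CF, which share no library, had a Pearson correlation of 0.79 and a Spearman correlation of 0.84, given as a description over genes that are not independent. The sign was shared by 45 members, and the change was larger in size in WT for 46. The median size was 0.36 in WT and 0.21 in CF. These are values of the members alone, with none over all genes beside them, so none is shown to be particular to the members. Calls depended on scaling. The summed level of 80 cytosolic ribosomal protein genes went from 207613 to 121165 CPM in WT and from 208192 to 130727 CPM in CF. With TMM factors 4 members rose and 21 fell in WT, beside 13.9% and 18.9% of all genes. In CF the counts were then 0 and 9, beside 7.99% and 16.1%. With TMM factors the median of all genes went from 0.11 to -0.08 in WT and from 0.14 to -0.12 in CF, and that of the members from -0.19 to -0.39 and from 0.04 to -0.23. The members' median was below that of all genes under either scaling.

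**Figure D3:**
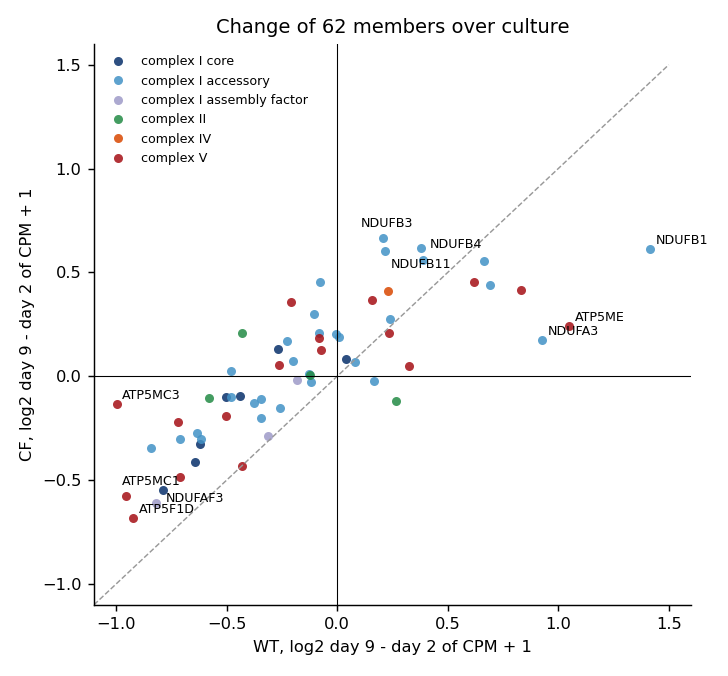
Change from day 2 to day 9 of the 62 members tested, in WT (horizontal) and CF (vertical), as log2 of CPM + 1. Each point is 1 gene coloured by role and the dashed line marks equal change; NDUFB1, ATP5ME and NDUFA3 lie far to the right and ATP5MC3 far to the left of it.

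Several of the WT changes fell between day 7 and day 9. In that step 4 of 62 members rose in WT, which were ATP5ME, NDUFB1, NDUFA3 and ATP5MK. That is 6.45%, near the 5.48% of all genes, and ATP5F1D alone fell (1.61%, beside 3.42%). In CF 0 members rose and 0 fell, beside 0.687% and 0.869% of all genes. ATP5ME, the subunit e of the membrane part, had 380, 351, 401 and 788 CPM in WT and 415, 471, 553 and 490 CPM in CF. Its last WT library was far above the other 7, and its ratio turned from 1.38 (1.35 to 1.40) at day 7 to 0.622 (0.613 to 0.631) at day 9. The day 9 call was lost in the deposited ductal class (log2 -0.10), with equal weight of classes and against SOX2-low WT clusters, while in kept ductal clusters the ratio was 0.611 over 51 CF cells. NDUFA3 had 204, 205, 234 and 389 CPM in WT and 259, 275, 313 and 293 CPM in CF, so its order turned in the same way over all cells. The ratio of NDUFB1 was 1.37 (1.33 to 1.40) at day 7 and 0.729 (0.715 to 0.744) at day 9. In the deposited ductal class both stayed higher in CF at day 9 (452 against 278 CPM for NDUFB1, 423 against 345 CPM for NDUFA3), while in the ductal clusters kept under their name both were lower (ratios 0.737 and 0.767 over 51 CF cells).

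The step was present in each class of WT cells with enough cells on both days. From day 7 to day 9 ATP5ME rose 1.84-fold in centroacinar cells, 1.78-fold in centroacinar progenitors and 2.11-fold in ductal cells as deposited. For NDUFB1 the same ratios were 1.92, 1.7 and 1.80. Some genes that are no members, picked for the same step after these values were seen, are given only as values. RPS29 went from 2467 to 4233 CPM and RPS28 from 1787 to 3007 CPM, whereas in CF they were at 3529 and 3293 and at 2438 and 2128 CPM. ROMO1 had a log2 step of 0.80 in WT and -0.01 in CF, and POLR2L had 0.73 and 0.08. The mitochondrially encoded ND4L and ATP8 stepped by 1.24 and 1.22 in WT. The step was not shared by all members, since NDUFA4 and NDUFA2 changed by -0.04 and 0.07 in WT. The WT day 9 library is 1 library, and its preparation and its day cannot be told apart.

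The deposited cell table assigns each cell to 1 of 6 classes, named by the authors for each of 71 clusters by correlation with published pancreas data. The markers listed for each class were checked, and 13 of the 71 clusters were not kept under their name: 6 led by markers of another class and 7 of low depth without a marker of their own. Over all clusters under the deposited names, centroacinar progenitors had the highest members' sum of the classes with at least 50 cells in 6 of 8 libraries. The exceptions were WT day 5, led by proliferating ductal cells, and CF day 9, led by ductal cells. With mitochondrial UMIs left out of the total, progenitors led WT day 5 as well. With kept clusters alone the progenitors led in 6 libraries too, with WT day 5 and CF day 5 as exceptions. The highest class was between 1.07-fold and 1.22-fold above the lowest within a library. In WT day 2 this was 21715 CPM in progenitors against 18591 CPM in ductal cells.

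Within the deposited ductal class, the CF-to-WT ratio of the sum was higher at each later day. The sums were 18591, 18039, 17439 and 17596 CPM in WT and 19064, 19913, 20825 and 22252 CPM in CF. The ratio was 1.03 (1.02 to 1.03), 1.1 (1.1 to 1.11), 1.19 (1.19 to 1.20) and 1.26 (1.26 to 1.27). The CF class shrank to 176 cells at day 7 and 284 at day 9, most of the latter in CF cluster 19, whose leading genes include TFF3, which was listed as a progenitor marker. With kept clusters alone, 88 and 51 CF cells remained and the ratios at day 7 and 9 were 1.19 (1.18 to 1.2) and 1.11 (1.1 to 1.12), so the last step was not seen there. In the centroacinar class the ratios at day 5, 7 and 9 were 1.04 (1.03 to 1.04), 0.947 (0.943 to 0.952) and 1.08 (1.08 to 1.08), and in the progenitors they were 0.914 (0.910 to 0.919), 1.11 (1.1 to 1.11), 1.08 (1.08 to 1.09) and 1.05 (1.05 to 1.06) at day 2, 5, 7 and 9.

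Single members differed between genotypes to an unequal extent in the classes. In the deposited ductal class, 41 of 248 values (62 tested members at 4 days) were past 1.5-fold but under it over all cells. That is 16.5%, beside 19.5% of the values of all genes. At day 2 and 5 the shares were 8.06% and 0% of the members, beside 3.86% and 12.6% of all genes. At day 7 and 9 the shares were 27.4% and 30.6% of the members, beside 29.6% and 31.9% of all genes. These gaps were not tested. NDUFA4 was 2.09-fold higher in CF ductal cells at day 9 (1279 against 611 CPM), 1.5-fold in progenitors (1290 against 860 CPM) and 1.37-fold in centroacinar cells (1009 against 734 CPM). In centroacinar cells at day 5 and 7 it was lower in CF, with ratios of 0.87 and 0.82. NDUFC1 was 2.49-fold higher in CF ductal cells at day 9 (511 against 205 CPM) and 1.13-fold in centroacinar cells (275 against 243 CPM). Of the 284 CF ductal cells at day 9, 233 were in CF cluster 19, and in the 51 cells of kept clusters the ratios were 1.5 for NDUFA4 and 1.19 for NDUFC1. SDHB was lower in CF centroacinar cells at day 9 (108 against 187 CPM). In ductal cells SDHB was instead higher in CF at day 5 (176 against 141 CPM) and day 7 (162 against 138 CPM) and near WT at day 9 (135 against 137 CPM). In kept ductal clusters its ratios at day 7 and 9 were 1.49 and 1.21 (166 against 137 CPM at day 9).

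The clusters spread more widely than the libraries. The 41 WT clusters had a median of 18717 CPM and a range from 10127 to 24229 CPM, and the 30 CF clusters had a median of 18429 CPM and a range from 5392 to 22937 CPM. The highest CF clusters were CF 25 with 22937 CPM, CF 7 with 22616 CPM and CF 19 with 21900 CPM. Leading genes of CF 7 were WFDC2, TFF1, TFF2, BPIFB1 and MMP7, those of CF 25 included PI3, MUC5B, LYZ, TFF1 and TFF2, and those of CF 19 included SPINK1, TFF3, TFF2 and TFF1. All 3 had trefoil factors (small secreted proteins of mucous cells) among their leading genes. CF 7 had 1713 CPM of complex IV members, nearly all of them NDUFA4, against 290 CPM for complex II, and CF 19 had 1266 and 301 CPM.

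In WT the highest clusters were WT 40 with 24229 CPM over 29 cells, led by LYZ and TFF1, then WT 13 with 21726 CPM, led by SCGB1A1, and WT 15 with 21416 CPM, whose leading genes included CD14 and ACSM1. The lowest were WT 38 (10127 CPM over 60 cells), WT 20 (12034 CPM) and WT 16 (13837 CPM), and in CF they were CF 27 (5392 CPM over 183 cells), CF 23 (8274 CPM) and CF 29 (11740 CPM over 47 cells). WT 38, WT 20, CF 23 and CF 27 were shallow, with a median of 2726, 3398, 3246 and 4718 UMIs per cell, and none of these 4 was kept under its class name. CF 27 had a median of 17.4% mitochondrial UMIs, and CF 29 and WT 16 had 15.4% and 14.3%. The part of depth and of damaged cells in these low sums was not tested.

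**Figure D4:**
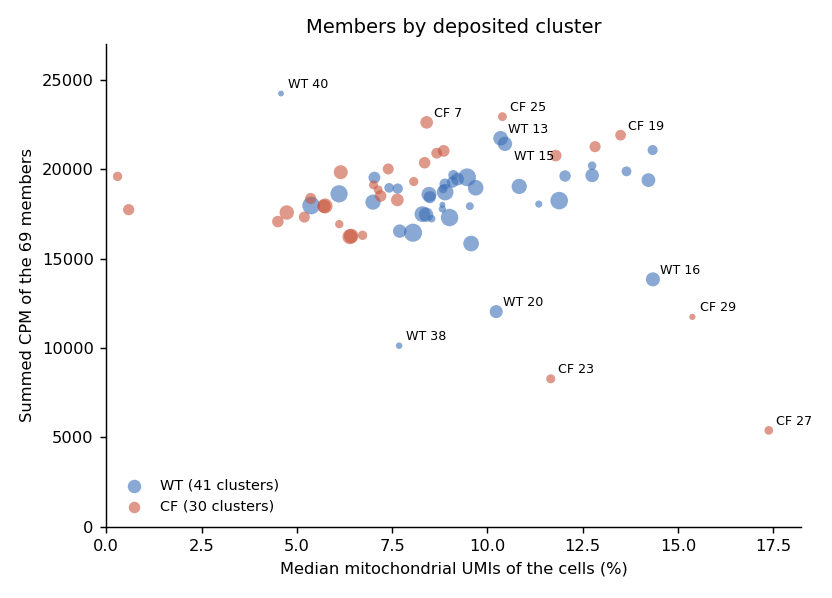
Summed CPM of the 69 members in each deposited cluster against the median share of mitochondrial UMIs of its cells, for WT (blue) and CF (red), with area growing with the number of cells. The 3 highest and 3 lowest clusters of each genotype are named; CF 27 is lowest at 5392 CPM and 17.4%.

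Over clusters of at least 50 cells, the summed level of complex I and that of complex V had a Pearson correlation of 0.86 in WT (39 clusters, Spearman 0.64) and 0.90 in CF (29 clusters, Spearman 0.80). These are descriptions of points that share libraries, depth and a common total. The members' sum and the log of the median UMIs per cell had a Pearson correlation of 0.65 in WT and 0.51 in CF (Spearman 0.44 and 0.80). Over the same clusters the sum and the median mitochondrial share gave 0.19 in WT and -0.24 in CF, while the Spearman values were 0.40 and 0.43. Both genotypes had NDUFB1 as the most variable member over clusters, from 105 to 477 CPM in WT and from 41.0 to 498 CPM in CF. The steadiest tested member was ATP5IF1 in WT (359 to 638 CPM) and NDUFV3 in CF (49.6 to 127 CPM).

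Cells were also binned by their mitochondrial share, with CPM then taken over the UMIs of genes other than the mitochondrial ones, so that the share itself did not enter the total. In CF day 9 the members' sum was 18773 CPM in cells of 0 to 5%, 22065 CPM at 5 to 10%, 24623 CPM at 10 to 15% and 23318 CPM at 15 to 20%. The other CF libraries were also highest in a bin over 10%, with 22480, 23878 and 23713 CPM at day 2, 5 and 7 in their highest bin. WT libraries had no common course. WT day 2 was also highest in its top bin (21803, 20535, 22252 and 23549 CPM), WT day 5 was nearly flat (19674, 19719 and 19322 CPM in its 3 bins), and WT day 9 was highest in its lowest bin (22861, 20067, 20340 and 19592 CPM). In WT day 7 the bins had 23309, 19737, 21167 and 22479 CPM. Cells under 5% were few in WT day 7 (83) and many in CF day 9 (1010). Depth differed between the bins too. At 0 to 5% the median UMIs per cell were 15397, 18742, 1542.5 and 18836 in CF day 2, 5, 7 and 9. At 10 to 15% they were 29393, 33367.5, 35588 and 21378. The WT libraries too had higher medians at 10 to 15% than at 0 to 5%, and the part of depth was not tested.

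**Figure D5:**
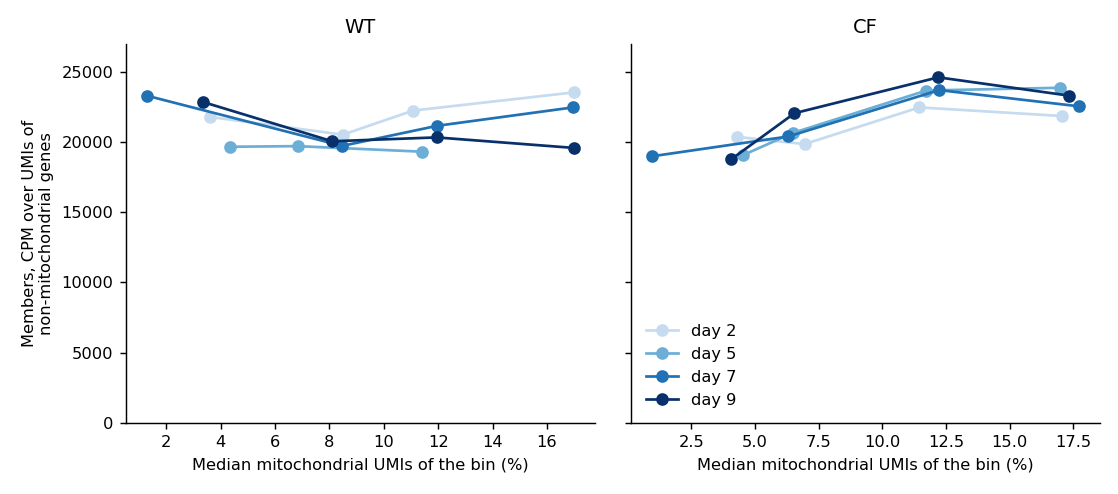
Summed level of the 69 members, as CPM over the UMIs of non-mitochondrial genes, in bins of cells by their share of mitochondrial UMIs, for WT (left) and CF (right), with 1 line for each day. Each point is the summed cells of 1 bin in 1 library, placed at the bin's median share, and the bins differ in depth too. CF lines are higher above 10% than below 5%, as is WT day 2, and the WT day 9 line is not.

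Shallow cells held fewer member transcripts per UMI. Cells with under 3000 UMIs had between 12090 and 17583 CPM in the 8 libraries, and those over 40000 UMIs had between 18728 and 21726 CPM. CF day 7 had 411 cells under 3000 UMIs, the most of any library. Without such cells no difference between genotypes in the members' sum moved by more than 0.01 on the log2 scale.

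Within WT, the 12 SOX2-low clusters had 17348, 18280, 17680 and 17197 CPM of the members and the 29 SOX2-high clusters 19417, 18316, 18849 and 18418 CPM, lower in the SOX2-low cells at day 2, 7 and 9 and level within counting error at day 5. The complex I members were lower in them at each day, with 7814, 8077, 7689 and 7251 CPM in SOX2-low and 8614, 8554, 8543 and 8070 CPM in SOX2-high clusters. Complex V was instead higher in SOX2-low cells at day 5 (8707 against 8220 CPM), and complex IV at day 2 (688 against 588 CPM). CF exceeded the SOX2-low WT cells at each day, by 0.11, 0.09, 0.12 and 0.20 on the log2 scale. The limit that parts the clusters was taken from earlier results of these data.

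Other mitochondrial gene lists were read in the same way, by the number of tested genes with 1 direction at all 4 days. Of 14 citric acid cycle genes, 0 were higher and 6 lower in CF, with SUCLG2 and IDH3G the lowest by mean log2 difference (-0.30 and -0.27) and OGDH and IDH3A the highest (0.03 and 0.29). Of 74 genes of the mitochondrial ribosome, 7 were higher and 21 lower. MRPL22 had 102, 72.1, 75.6 and 73.2 CPM in WT and 49.4, 45.8, 42.2 and 44.0 CPM in CF, while MRPL52 had 179, 252, 234 and 206 CPM in WT and 393, 367, 297 and 344 CPM in CF. MRPS30 and MRPL30 had mean log2 differences of -0.65 and 0.40. Of 19 import genes 2 were higher and 3 lower, with TIMM8B (-0.28) and TIMM44 (-0.27) at 1 end and TIMM17A and TOMM20 (both 0.23) at the other. Of 11 genes of mitochondrial biogenesis and DNA 0 were higher and 1 was lower, from PPRC1 (-0.25) and ESRRA (-0.23) to TFAM (0.06) and YY1 (0.18). These compare with 24.2% of all genes higher and 16.2% lower.

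Of 6 electron carriers and other dehydrogenases, 1 was higher and 1 lower in CF at all 4 days. ETFA, a flavoprotein that passes electrons from fatty acid oxidation, had 23.9, 50.3, 48.7 and 33.7 CPM in WT and 65.7, 80.7, 91.0 and 80.5 CPM in CF, and every CF library exceeded every WT library. SQOR, which oxidizes sulfide, had 274, 144, 163 and 107 CPM in WT and 196, 119, 74.9 and 65.7 CPM in CF, lower in CF at each day. UCP2 had 39.3, 10.8, 14.8 and 8.20 CPM in WT and 12.3, 11.8, 6.79 and 4.40 CPM in CF. Of 9 further assembly factors, 3 were higher and 0 lower, with TTC19 between 18.5 and 23.7 CPM in WT and between 22.5 and 29.9 CPM in CF. The mean log2 differences of CMC1, TMEM70 and TIMMDC1 were 0.27, -0.16 and -0.28, and that of ETFDH among the electron carriers was 0.26.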

How the data were processed

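Counts of UMIs per gene and barcode were made by the authors with Cell Ranger 5.0.1 on ferret assembly ASM1176430v1.1 with an improved annotation, as deposited in 1 matrix per library. The authors dropped cells under 200 genes or over 20% mitochondrial reads, removed doublets with DoubletFinder in R 4.1.2 and Seurat, and deposited the class, cluster and percentage of mitochondrial UMIs of each cell. No doublet caller was run again. Groups came from the title and genotype labels.

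UMIs of the 32945 deposited cells, of 44243 barcodes, were summed by library, class or cluster and divided by the total (CPM). Rows without an assigned gene (0.423% to 0.973% of UMIs) stayed in the totals and were not removed from the genes compared. Reads that overlap several genes may be split or lost in such counts. Genes of at least 10 CPM on average were compared as log2(CPM + 1), which understates changes of low genes, and 1.5-fold was the size called. Sums and ratios carry exact 95% Poisson or conditional binomial intervals, which cover counting error only. Members were named as the 2 most abundant of each complex and of the assembly factors, the 5 highest and 5 lowest by mean log2 difference among those of 1 direction at all 4 days, the 3 with the largest rise and fall in each genotype, the paralog sets, ATP5IF1 and the SDH genes, and of the other mitochondrial lists the 2 highest and 2 lowest genes. Any other gene named, such as COX1 or ATP6, was chosen after its values were seen. The members and lists were chosen with earlier results of these data known. TMM factors came from edgeR 4.0.16 and size factors from DESeq2 1.42.0 in R 4.3.3, without a test, and other steps from Python 3.11.15. The calculations were tested on simulated data. Alternatives changed the scaling, the cells, their weight, the pseudocount, the filter and the fold. The deposited normalized table and pseudotime scores were not used. Gene positions came from the RefSeq table of the same assembly.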

Additional observations from a re-analysis of the deposited data

Results flagged for a closer look

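A set of 4 members had differences of opposite sign between days that were past 0.32 on the log2 scale in both directions. Opposite signs alone were common, since only 11 of 62 tested members were higher and 10 lower in CF at all 4 days. The share of all genes that met the same rule was not computed. Of these differences only that of ATP5ME at day 9 was past 1.5-fold. For none of the 4 members was the difference between days tested, since each genotype and day is 1 library. ATP5ME had a log2 difference, CF minus WT, of 0.46 at day 7 and -0.68 at day 9. NDUFB1 had 0.45 at day 7 and -0.45 at day 9. For NDUFA3 the values were 0.43 at day 5 and -0.41 at day 9. ATP5MC3 ran the other way, with -0.39 at day 2 and 0.48 at day 9. The opposite sign was not kept by NDUFB1 (0.70 at day 9) and NDUFA3 (0.29 at day 9) in the deposited ductal class, where 233 of the 284 CF cells were in CF cluster 19, but it was kept in the ductal clusters left under their class name (-0.44 and -0.38 over 51 CF cells). It was not kept by ATP5MC3 (0.15 at day 2) against SOX2-low WT clusters.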

How the results depend on the processing

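No paired analysis was possible because each genotype and day is 1 library. The values below are the log2 difference in the members' summed level, CF minus WT, at day 2, 5, 7 and 9, then the change from day 2 to day 9 in WT and in CF. TMM factors gave -0.091, 0.12, -0.15 and -0.00048, then -0.28 and -0.19. DESeq2 size factors gave -0.067, 0.15, -0.11 and 0.024, then -0.25 and -0.16. A total without mitochondrial genes gave -0.063, 0.11, 0.0037 and 0.074, then -0.067 and 0.070. All deposited barcodes gave -0.041, 0.073, -0.0078 and 0.14, then -0.14 and 0.036. Cells under 10% mitochondrial UMIs gave -0.026, 0.052, 0.050 and 0.052, then -0.012 and 0.066. Equal weight of cells gave -0.061, 0.082, -0.00089 and 0.047, then -0.093 and 0.015. Equal weight of classes gave -0.059, 0.11, 0.10 and 0.18, then -0.11 and 0.18. The deposited ductal class alone gave 0.036, 0.14, 0.26 and 0.34, then -0.079 and 0.22. WT clusters low in SOX2 gave 0.11, 0.093, 0.12 and 0.20, with a WT change of -0.013. Clusters kept under their class name, an alternative chosen after seeing the data, gave -0.048, 0.068, 0.061 and 0.13. Cells of at least 3000 UMIs moved only the CF change, to 0.081, beyond counting error.

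The sign at day 7 changed with TMM and DESeq2 factors, all barcodes and equal weight of cells, that at day 9 with TMM factors, that of the CF change with both kinds of factors, and that at day 2 in the ductal class and against SOX2-low WT clusters. In each case the cause was not tested. The number of members past 1.5-fold in 1 direction at all 4 days was 0 under every alternative listed in advance, and 1 (NDUFC1) at the smaller size added after seeing the data. Of 100 single values (25 named members at 4 days), TMM factors turned the sign of 10, the deposited ductal class that of 16 and SOX2-low WT clusters that of 17. Over all 62 tested members, 1.61%, 16.5% and 3.23% of the values were newly past 1.5-fold in the same order, beside 2.06%, 19.5% and 6.58% of those of all genes. Of 24 values of complex sums, TMM factors turned the sign of 5. The counts of turned signs have no share of all genes beside them. Some of the named members were chosen for having 1 direction at all 4 days, so these counts do not describe the members as a whole. The call of NDUFA4 at day 9 was lost under TMM factors, DESeq2 size factors, the total without mitochondrial genes and equal weight of cells, that of NDUFB3 at day 7 under TMM and DESeq2 factors, and that of ATP5ME at day 9 under equal weight of classes, in the ductal class and against SOX2-low WT clusters. TMM factors moved the median of all genes at day 7 from 0.13 to -0.07. Counting error was small beside these moves for the sums, but for low members such as NDUFB3 and NDUFAF1 it was of the size of many of them.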

Other observations

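The summed level of glycolytic genes, the cytosolic route to ATP, fell with time in both genotypes, though not every gene did. The 13 glycolytic genes in the matrix summed to 4903, 3409, 3208 and 2395 CPM at day 2, 5, 7 and 9 in WT, and to 4691, 3335, 3036 and 2730 CPM in CF. Of 11 tested, 5 were higher and 1 was lower in CF at all 4 days, beside 24.2% and 16.2% of all genes. GPI and HK1 had the highest mean log2 difference (0.28 and 0.32), and TPI1 and GAPDH the lowest (-0.18 and -0.17). GAPDH went from 1590 to 697 CPM in WT and from 1407 to 781 CPM in CF, while HK1 had 162 and 177 CPM in WT and 204 and 235 CPM in CF.

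Genes of proliferating cells summed to 463 CPM in WT at day 2 and 74.1 CPM at day 9, and in CF to 203 and 69.9 CPM. The 8 genes of dissociation stress summed to 2932, 3376, 3561 and 3722 CPM in WT and 2497, 2882, 2845 and 2144 CPM in CF.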
